A study of Cricetiscus sungorus with 24 samples.

Results

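The genes described here are 10 markers of white and brown fat, read in RNA from the kidneys of Djungarian hamsters: Adipoq, Plin1, Cfd, Car3, Fabp4, Ucp1, Lep, Cidec, Cidea and Plin4. They are known fat genes chosen by their reads in these libraries, which had been seen to vary together, so their co-variation over SAL and PRL and their detection over LP, SP12wk and SP28wk are given as a description, without a test. Each gene is represented by its mouse transcript with the most reads. Of the 15960 genes listed in either experiment, 9 of the 10 markers were listed in experiment 2 and 7 in experiment 1. Plin4 was listed in neither, and Plin1 and Cfd were not listed in experiment 1.

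Fat cells store triglyceride in lipid droplets coated by perilipins and CIDE proteins, release fatty acids on demand, and secrete hormones. White fat cells are known for leptin and adiponectin, and brown fat cells for mitochondria that carry the uncoupling protein UCP1 and turn fuel into heat. Fat lies around the kidney capsule and in the renal hilum, and in small rodents this depot may hold brown as well as white cells. Adiponectin, leptin and UCP1 are best known from fat cells, whereas Fabp4 is also made by capillary endothelium and macrophages and Car3 by muscle and liver.

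In experiment 1, adult male hamsters were held in a long photoperiod with 16 h of light per day (LP, n = 4) or moved to a short photoperiod with 8 h of light for 12 weeks (SP12wk, n = 4) or 28 weeks (SP28wk, n = 4). In experiment 2, adult females were all moved from LP to SP for 8 weeks and then injected intraperitoneally on 3 days with a vehicle of dimethyl sulfoxide and saline (SAL, n = 6) or with 18 µg ovine prolactin in that vehicle (PRL, n = 6). Prolactin is the pituitary hormone that falls in SP. Every library came from part of a frozen kidney, of which the remainder had gone to histology, and each experiment was sequenced on its own nanopore flow cell. Sex, flow cell and photoperiod therefore differ together between the experiments and cannot be told apart. How fat at the capsule and hilum was handled at dissection is not given in the sources read.

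With 1 transcript per gene, the libraries of experiment 1 held 15688 to 57585 reads and those of experiment 2 held 174053 to 756523. A read was thus worth 17.4 to 63.7 CPM (the reads of a gene when its library is scaled to 1000000 reads) in experiment 1 and 1.32 to 5.75 CPM in experiment 2. A count of 0 allows up to 3 reads, which is 52.1 to 191 CPM in experiment 1 and 3.97 to 17.2 CPM in experiment 2. These limits and the intervals below cover counting error only. Of 20 kidney tubule and glomerulus genes, 18 were listed in experiment 2 and 14 in experiment 1. The summed level of the 18 in experiment 2 ran from 1578 to 3430 CPM in SAL and from 1898 to 3546 CPM in PRL. Being listed is no check of the tissue label. In experiment 2, 25 of 26 genes of fatty acid uptake and synthesis were also listed, with 15 of 15 stromal and 5 of 13 adrenal genes.

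Every kidney library of experiment 2 held reads of some fat markers, at a level that differed widely between animals of the same group. In SAL replicates 1 and 2 these reads came from 4 markers only, Fabp4, Car3, Cidec and Cidea. Adipoq, Plin1, Cfd, Ucp1 and Lep had 0 reads in both. The summed level of the 9 listed markers was 122, 114, 169, 88.4, 398 and 307 CPM in SAL replicates 1 to 6. It was 219, 189, 344, 221, 603 and 428 CPM in PRL replicates 1 to 6. SAL replicates 1 to 4 were the 4 lowest of the 12 libraries, while SAL replicates 5 and 6 lay among the PRL values, so the groups overlapped. In bulk tissue, fewer cells of a type and less RNA per cell cannot be told apart.

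Fabp4 encodes the fatty acid binding protein of fat cells and gave more reads than any other marker, 513 or 48.2% of the marker reads in experiment 2. Its reads were 19, 17, 18, 19, 68 and 59 in SAL replicates 1 to 6, which is 51.4, 44.2, 82.2, 35.7, 208 and 189 CPM. In PRL replicates 1 to 6 it had 65, 53, 49, 31, 27 and 88 reads, which is 109, 70.1, 194, 143, 155 and 249.6 CPM. SAL replicates 1, 2 and 4 lay below all PRL libraries, and SAL replicates 5 and 6 lay above at least 4 of the 6. The group means were 102 ± 76.8 CPM in SAL and 153 ± 63.1 CPM in PRL (SD, n = 6 each).

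Car3, carbonic anhydrase 3, an abundant cytosolic protein of fat and muscle, had 8, 3, 9, 5, 31 and 23 reads in SAL and 31, 30, 13, 9, 37 and 28 in PRL. This was 21.6, 7.80, 41.1, 9.40, 94.9 and 73.6 CPM in SAL and 51.9, 39.7, 51.4, 41.4, 213 and 79.4 CPM in PRL. The same SAL pair, replicates 5 and 6, was high, and PRL replicate 5 stood above all other libraries. The means were 41.4 ± 35.9 CPM in SAL and 79.4 ± 66.8 CPM in PRL.

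Ucp1, the uncoupling protein of brown fat, was not detected in SAL replicates 1 to 4 and gave 5 and 3 reads in SAL replicates 5 and 6. In PRL it gave 1, 0, 5, 3, 11 and 8 reads. The level reached 15.3 CPM at most in SAL and 63.2 CPM in PRL replicate 5. In all, 8 reads came from SAL and 28 from PRL. The libraries with 3 or more reads had a summed marker level of 221 CPM or higher, but that sum includes Ucp1 itself. PRL replicate 1, with 1 read of Ucp1, lay just below at 219 CPM, so the cut is no independent agreement with the other markers.

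The hormones of white fat were near the detection limit. Adipoq, which encodes adiponectin, had 0, 0, 1, 0, 7 and 1 reads in SAL and 3, 2, 1, 1, 5 and 4 in PRL, so it was seen in 3 SAL and all 6 PRL libraries. The highest levels were 21.4 CPM in SAL replicate 5 and 28.7 CPM in PRL replicate 5. Lep, which encodes leptin, had 5 reads in SAL and 4 in PRL, each spread over 3 libraries. Cfd, which encodes the secreted protease adipsin, had 0, 0, 0, 2, 1 and 0 reads in SAL and 3, 3, 2, 0, 1 and 8 in PRL. Of the 17 reads of Cfd in PRL, 8 were in replicate 6, which held 22.7 CPM against 7.91 CPM at most in the other PRL libraries.

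The droplet proteins differed among themselves. Plin1, the perilipin that guards the droplet surface in fat cells, had 2 reads in SAL replicate 5 and 5 reads in PRL, in replicates 2, 5 and 6. Cidea and Cidec encode proteins that fuse lipid droplets, and both were read in all 12 libraries, with an order of libraries unlike that of Fabp4. Cidea had 13, 18, 4, 19, 10 and 6 reads in SAL and 21, 43, 14, 2, 12 and 7 in PRL, with means of 31.0 ± 10.9 and 40.9 ± 23.4 CPM. Cidea was thus at 35.1, 46.8 and 35.7 CPM in SAL replicates 1, 2 and 4, libraries without a read of Adipoq or Ucp1, and at 9.20 CPM in PRL replicate 4. Cidec had 5, 6, 4, 2, 5 and 1 reads in SAL and 6, 11, 3, 2, 10 and 3 in PRL, with 57.5 CPM in PRL replicate 5 and at most 18.3 CPM in any other library.

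**Figure D1:**
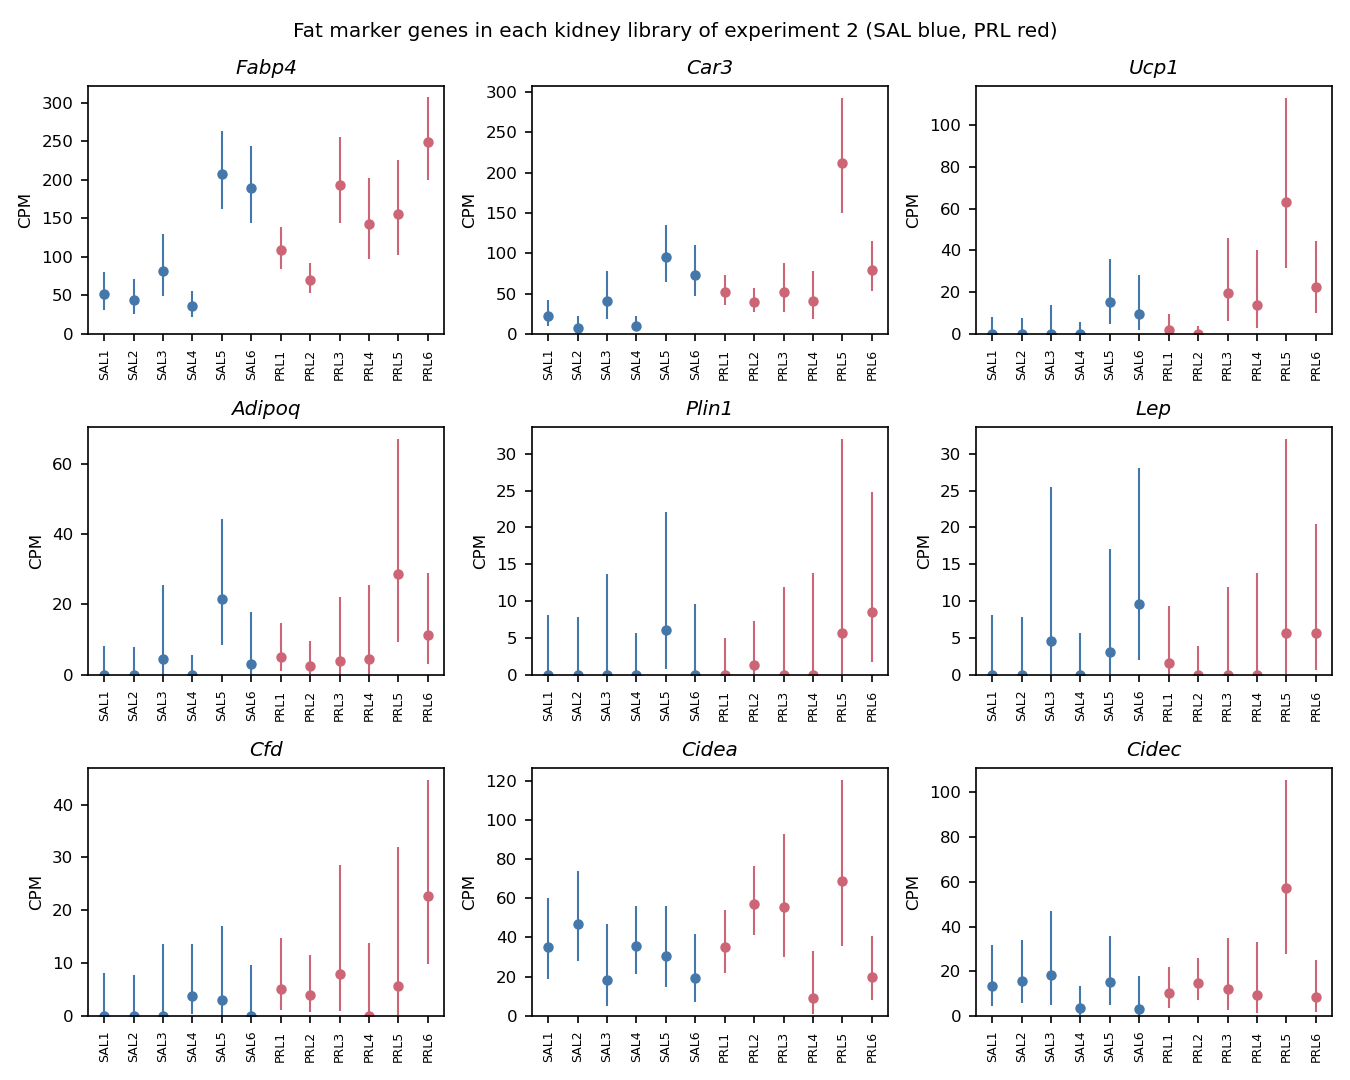
Level of the 9 listed fat markers in each library of experiment 2, in CPM, with SAL replicates 1 to 6 in blue and PRL replicates 1 to 6 in red; bars are exact Poisson 95% intervals, or reach 3 reads where the count is 0, and cover counting error only. Fabp4, Car3 and Ucp1 are low in SAL replicates 1 to 4 and high in SAL replicates 5 and 6, whereas Cidea and Cidec do not follow that order.

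Over the 12 libraries, the mean Pearson r of the 36 marker pairs was 0.430 on log2 CPM (after adding the 2.95 CPM that a read was worth in the median library), and 33 pairs were above 0. The pairs share their libraries and library totals, and r is given as a description. Adipoq, Car3, Fabp4 and Ucp1 were the most alike, with a mean r of 0.830 over 6 pairs and a range from 0.771 to 0.912. The pair of Adipoq and Car3 had the highest r. With the group mean subtracted the mean over the 36 pairs was 0.387, so the pattern was present within groups. Without PRL replicate 5 it was 0.290, and without both the highest and the lowest library, PRL replicate 5 and SAL replicate 4, it was 0.252.

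Although listed as fat markers, Cidea did not follow the other markers in these libraries, and Cidec followed them weakly. The mean r of Cidea with the 7 markers other than Cidec was -0.00817, from -0.253 with Fabp4 to 0.299 with Cfd. That of Cidec with the same 7 was 0.274 by Pearson and 0.0344 by Spearman correlation. The 7 other markers had a mean r of 0.625 among themselves, from 0.164 to 0.912, a set that was formed after these values were seen.

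Spread between libraries beyond counting error was measured as the chi-square of the reads per degree of freedom, which is near 1 when only sampling varies and had a median of 1.31 over the 10696 genes tested. It was 17.1 for Fabp4, a value that 2.47% of all genes reached, 13.9 for Car3 (3.19%) and 9.48 for Ucp1 (4.37%). For Adipoq it was 3.87, for Cidec 3.15, for Cfd 3.10 and for Cidea 2.57, values that 10.1 to 17.1% of genes reached. For Lep it was 1.69, which 33.6% of genes reached, and for Plin1, which was not tested, 1.98. The measure grows with the number of reads, so the order of the genes is in part that of their depth.

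The comparison of PRL with SAL asks which kidney transcripts prolactin changes in SP. By edgeR's quasi-likelihood test over 10696 genes, 0 of the 8 markers tested differed between PRL and SAL at an adjusted p of 0.05, and 0 genes in all did so (0.0%). At an unadjusted p below 0.05 there were 2 markers, both higher in PRL, where 522 genes (4.88%) passed in either direction and 272 (2.54%) were higher. DESeq2 also called 0 genes, with 348 at an unadjusted p below 0.05. Of the 8, 7 had a log2 fold change above 0, with a median of 0.60 against 0.03 over all genes tested. Passing the filter took a read in at least 6 of the 12 libraries, which Plin1 did not meet.

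The largest log2 fold changes of PRL over SAL were 2.14 for Cfd (SE 0.823, edgeR adjusted p = 0.712) and 1.73 for Ucp1 (SE 0.814, edgeR adjusted p = 0.993), the pair with an unadjusted p below 0.05. Those of Car3, Adipoq and Fabp4 were 0.80 (SE 0.405), 0.66 (SE 0.749) and 0.53 (SE 0.329). Cidec and Cidea were at 0.45 and 0.29, and Lep at -0.42, each within 1 SE of 0, as was Adipoq. No marker separated the groups: in each of the 8, at least 1 SAL library lay at or above a PRL library. Of all genes tested, 12 (0.112%) had every PRL library above every SAL library and 3 (0.028%) the reverse.

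Single libraries moved these values. The log2 fold change of Adipoq was 2.32 without SAL replicate 5 and 0.22 without PRL replicate 5, that of Ucp1 was 2.75 and 1.10 without the same libraries, and that of Cfd was 2.98 without SAL replicate 4 and 1.40 without PRL replicate 6. Car3 ran from 0.39 without PRL replicate 5 to 1.25 without SAL replicate 5, and Fabp4 from 0.24 without PRL replicate 6 to 0.86 without SAL replicate 5. Since SAL replicates 1 to 4 and SAL replicates 5 and 6 stood apart in marker level, the difference of PRL over SAL in the summed level was also taken without each set. It was 134 CPM with all libraries, 211 CPM without SAL replicates 5 and 6, and -18.5 CPM without SAL replicates 1 to 4. The sets were formed from the marker level itself, which fixes the direction of these shifts, and they are no test of PRL.

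**Figure D2:**
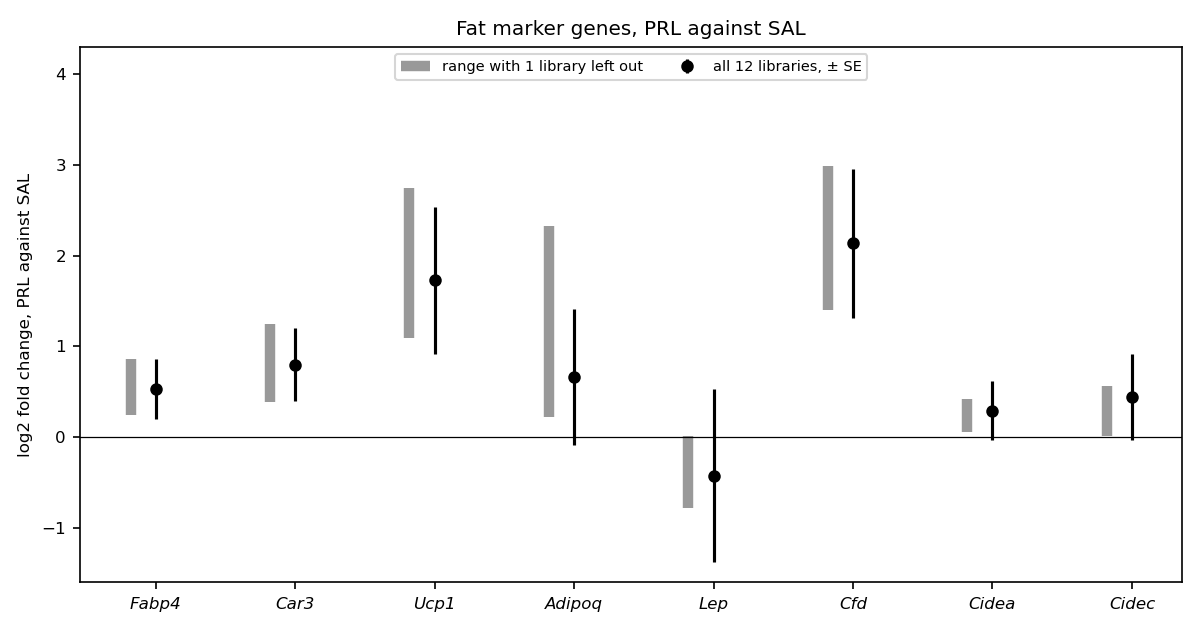
Log2 fold change of PRL over SAL for the 8 markers tested, with all 12 libraries (black, ± SE of the edgeR fit), and the range when 1 library is left out (grey bar, over the 12 libraries in turn, or for Lep the 6 whose removal left enough libraries with a read). Adipoq has a range from 0.22 to 2.32, and Adipoq, Lep, Cidea and Cidec lie within 1 SE of 0.

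Genes outside the 10 markers were ranked by how closely they followed the summed level. Among 7203 genes with at least 30 reads, the median r with the summed level over the 12 libraries was -0.00376, 18 genes exceeded 0.8 and 11 were below -0.8. The 12 most alike were Sh3gl3 (r = 0.931), Cox8b (0.882), Sncg (0.878), Thrsp (0.868), Gsn (0.865), Rab11fip3, Gm11476, Arl8a, Amd1, Amd2, Chd8 and LOC118568637, the last at 0.820. Amd1 and Amd2 held identical reads and are a single measurement. These r values are a description, since the libraries also share totals and group.

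Cox8b encodes a subunit of cytochrome oxidase typical of brown fat and striated muscle. It had 8, 0, 1, 2, 65 and 88 reads in SAL and 43, 25, 74, 52, 70 and 94 in PRL. SAL replicates 1 to 4 held 21.6 CPM or less, and the other 8 libraries held 33.0 to 402 CPM. The log2 fold change of PRL over SAL was 1.20 (SE 0.568, edgeR adjusted p = 0.993). It was 4.63 without SAL replicates 5 and 6 and -0.35 without SAL replicates 1 to 4. Cox8b was ranked by its r with the marker level that formed these sets. This fixes the direction of both shifts, and they are no test of PRL.

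Sncg, gamma-synuclein, is abundant in fat cells and sensory neurons, and had 14, 14, 8, 12, 25 and 33 reads in SAL and 31, 42, 25, 26, 20 and 42 in PRL. Thrsp, a nuclear factor of lipid synthesis, had 9, 5, 4, 5, 13 and 21 reads in SAL and 12, 17, 17, 20, 27 and 35 in PRL. In CPM, SAL replicate 4 was the lowest of the 12 libraries for both. Gsn, the actin-severing protein gelsolin of stroma and other cells, ran from 7.52 to 52.0 CPM in SAL and from 21.1 to 79.4 CPM in PRL. Its lowest 4 libraries were again SAL replicates 1 to 4.

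Dgat2, the last enzyme of triglyceride synthesis, and Mb, myoglobin, ranked 14 and 16 with r of 0.816 and 0.807, and were picked after their values were seen. Mb had 1, 0, 0, 1, 3 and 12 reads in SAL and 5, 0, 9, 14, 31 and 30 in PRL. Its log2 fold change of PRL over SAL was 2.48 (SE 0.707, edgeR adjusted p = 0.281). Of the 13 muscle markers, which include Mb, 9 were listed. Their summed level was 132 to 287 CPM in SAL and 117 to 368 CPM in PRL, but 82.3% of their reads were Tnnt3, a troponin with a log2 fold change of -0.63 (edgeR adjusted p = 0.650), so the sum says little of the others. Acta1, the actin of skeletal muscle, had 8 reads in SAL and 18 in PRL. Ckm, the creatine kinase of muscle, is not among the most read of the list and had 2 reads over the 12 libraries. Of the 5 muscle markers tested, 2 lay above 0, Mb and Acta1, with a median over the 5 of -0.29 and 0 calls. Mylpf and Pvalb were at -0.29 and -0.72.

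**Figure D3:**
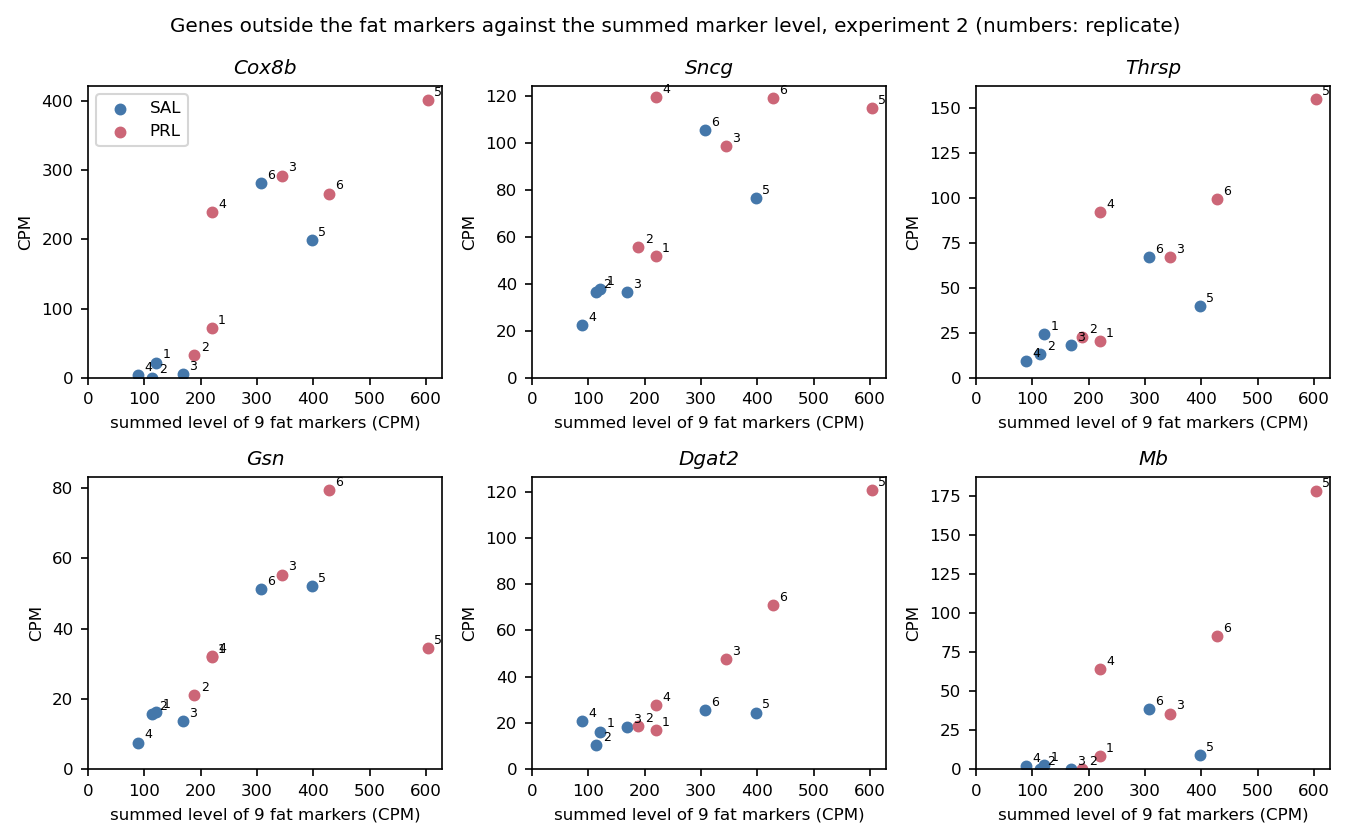
Level of Cox8b, Sncg, Thrsp, Gsn, Dgat2 and Mb (CPM, vertical axes) against the summed level of the 9 fat markers (CPM, horizontal axes) in the 12 libraries of experiment 2, SAL in blue and PRL in red with replicate numbers. SAL replicates 1 to 4 have the lowest marker levels and are low for Cox8b, Sncg, Gsn and Mb, and PRL replicate 5, at 603 CPM of markers, is highest for Cox8b, Thrsp, Dgat2 and Mb.

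Other lists of fat cell genes were compared with the markers and between groups. The median r with the summed marker level was 0.123 over 10 other identity and secreted genes, 0.0851 over 14 droplet genes, 0.255 over 19 fatty acid genes, 0.163 over 12 brown fat genes and 0.0486 over 10 stromal genes with at least 30 reads. It was -0.150 over 15 kidney genes, and these medians are descriptions. In the list of other identity and secreted genes, 13 of 24 were tested, 7 of them above 0 in PRL with a median log2 fold change of 0.03, and 0 were called. Rarres2, which encodes chemerin, gave 80.9% of that list's reads. Its members Pparg, the master regulator of fat cell differentiation, and Sncg had an unadjusted p below 0.05, with log2 fold changes of 2.20 and 0.72 (edgeR adjusted p = 0.610 and 0.887). Pparg rested on 3 reads in SAL and 18 in PRL, and those of its PRL libraries ran from 0 to 6.

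In the list of other genes of lipid droplets and lipolysis, 17 of 24 were tested, and 16 of the 17 had a log2 fold change of PRL over SAL above 0, with a median of 0.38, where 52.7% of all genes tested were above 0. Of these, 0 were called and 3 had an unadjusted p below 0.05, all higher in PRL. Pnpla2, the lipase that starts the breakdown of stored triglyceride, ran from 7.80 to 21.4 CPM in SAL and from 27.6 to 40.2 CPM in PRL. It was 1 of the 12 genes with every PRL library above every SAL library. Its log2 fold change was 1.06 (SE 0.323, edgeR adjusted p = 0.301). Dgat2 was at 1.10 (edgeR adjusted p = 0.610) and Plin2, a perilipin found in most cell types, at 0.74 (edgeR adjusted p = 0.887). The summed level of the 20 listed genes was 240.1 to 292 CPM in SAL and 322 to 506 CPM in PRL, without overlap. SAL replicates 5 and 6, which were high in the fat markers, held 278 and 240.1 CPM of these droplet genes, against a SAL median of 272 CPM. In the kidney tubule and glomerulus list, 13 of 16 tested were above 0 as well, with a median of 0.10 and 0 calls. The separation was noticed after the values were seen and was not tested, and many of these genes are also known from kidney cells.

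Among genes of fatty acid uptake and synthesis, 22 of 26 were tested and 11 lay above 0, with a median of 0.05 and 0 calls. Thrsp was the only one with an unadjusted p below 0.05, at 1.19 (SE 0.409, edgeR adjusted p = 0.519). Lpl, the lipase that frees fatty acids from lipoproteins for uptake, had an r of 0.685 with the marker level. Its level was 75.4 to 147 CPM in SAL and 80.4 to 109 CPM in PRL. The highest Lpl values of the 12 were those of SAL replicates 5 and 6, at 147 and 134 CPM.

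Of the brown fat genes other than Ucp1 and Cidea, 16 of 28 were tested, 5 above 0, with a median of -0.09 and 0 calls. Fabp3, a fatty acid binding protein of heart, muscle and kidney, gave 76.5% of that list's reads and was even between groups at 1569 CPM in SAL and 1596 CPM in PRL on average. Cox8b and Ucp2 were higher at an unadjusted p below 0.05, and Ppargc1a, the coactivator that drives mitochondrial genes, was lower at -0.87 (edgeR adjusted p = 0.993). Ucp2 is a relative of Ucp1 that is found in many tissues, and had 8 reads in SAL and 40 in PRL, with a log2 fold change of 1.98 (SE 0.587, edgeR adjusted p = 0.301).

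Markers of other tissues that a kidney sample may carry were also read. The 15 genes of stroma and capsule summed to 882 to 1151 CPM in SAL and 1023 to 1478 CPM in PRL, and 10 of 13 tested lay above 0 with a median of 0.17. The 5 listed of 13 adrenal genes summed to 112 to 190 CPM in SAL and 93.6 to 149 CPM in PRL, 78.2% of it Fdx1, which is read in many tissues. Haemoglobin and other blood genes summed to 9600.0 to 18120 CPM in SAL and 8912 to 19498 CPM in PRL. Hba-a1 and Hba-a2 held 10086 and 10046 reads, and Hbb-bs and Hbb-bt 18797 and 18757. This sum may therefore hold the same reads more than once. Liver genes were at 523 to 973 CPM in SAL and 445 to 1014 CPM in PRL, and lymphoid and myeloid genes at 57.6 to 130.1 CPM in SAL and 55.4 to 161 CPM in PRL. None of these lists held a call, and in each the ranges of SAL and PRL overlapped. Among their genes with at least 30 reads, the median r with the summed marker level was -0.534 over 3 liver and -0.484 over 3 adrenal genes. It was -0.0824 over 5 blood genes and -0.0618 over 4 lymphoid and myeloid genes. These medians are descriptions, and the part of these tissues in the marker levels was not tested.

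Experiment 1 asks how the kidney changes over a seasonal cycle of day length, and its shallow libraries held 39 marker reads in all. LP had 11, SP12wk 11 and SP28wk 17, and of these 28 were Fabp4. Fabp4 had 2, 0, 2 and 3 reads in LP, 0, 2, 2 and 1 in SP12wk, and 3, 4, 2 and 7 in SP28wk. Its level was 80.4 ± 54.4, 64.0 ± 59.8 and 116 ± 44.7 CPM (SD, n = 4 each). The spread between its libraries was 0.812 in chi-square per degree of freedom, no more than counting error gives.

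Fabp4 was the only marker with a read in at least 4 of the 12 libraries and so the only one tested. Its log2 fold change was -0.43 (SE 0.925) for SP12wk over LP, 1.18 (SE 0.811) for SP28wk over SP12wk and 0.75 (SE 0.760) for SP28wk over LP. The edgeR adjusted p was 0.938, 0.979 and 0.889, and none had an unadjusted p below 0.05. Of 5086 genes tested, 1 (0.0197%), 7 (0.138%) and 11 (0.216%) were called in these comparisons, and Fabp4 was in none. Scaling by library totals alone moved the median of all genes from 0.18 to -0.16 in SP28wk over LP from 0.00 to -0.17 in SP12wk over LP and from 0.16 to 0.01 in SP28wk over SP12wk, and Fabp4 kept its direction in each.

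The other markers were read in few libraries of experiment 1. Adipoq and Lep had 1 read each, both in LP replicate 2, and Car3 had 1 read each in LP replicates 3 and 4. Cidec and Cidea had 1 read each, both in SP12wk replicate 4, where Cidec was read on a different transcript from that used in experiment 2. Ucp1 had 4 reads in SP12wk replicate 2, which is 255 CPM in the shallowest library, and 1 read in SP28wk replicate 1. Cox8b also had 4 reads in SP12wk replicate 2, 4 in LP, 1 in SP12wk replicate 4, and 0 in the 4 SP28wk libraries.

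At the mean level of experiment 2, the 12 libraries of experiment 1 would have held 85.5 reads of the 9 markers. They held 39, and 7 of the 9 markers were below that expectation. The share of all genes below such an expectation was not computed, so the shortfall cannot be read as particular to fat markers. Car3 had 2 reads where 19.3 would be held, Cidea 1 where 11.5, Cidec 1 where 4.84 and Fabp4 28 where 40.9. Ucp1 had 5 where 3.90 would be held, and Lep 1 where 0.809. Adipoq, Cfd, Plin1 and Lep would have held under 3 reads each, so their 0 to 1 reads are not detectably different at this depth. Of the kidney genes, Calb1 averaged 124, 108 and 108 CPM in LP, SP12wk and SP28wk, and 539 and 536 CPM in SAL and PRL. Lrp2 went the other way, at 1032, 1150 and 902 CPM in experiment 1 and 451 and 428 CPM in experiment 2. Since sex, photoperiod, treatment and flow cell differ between the experiments, these values are set side by side without a test.

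**Figure D4:**
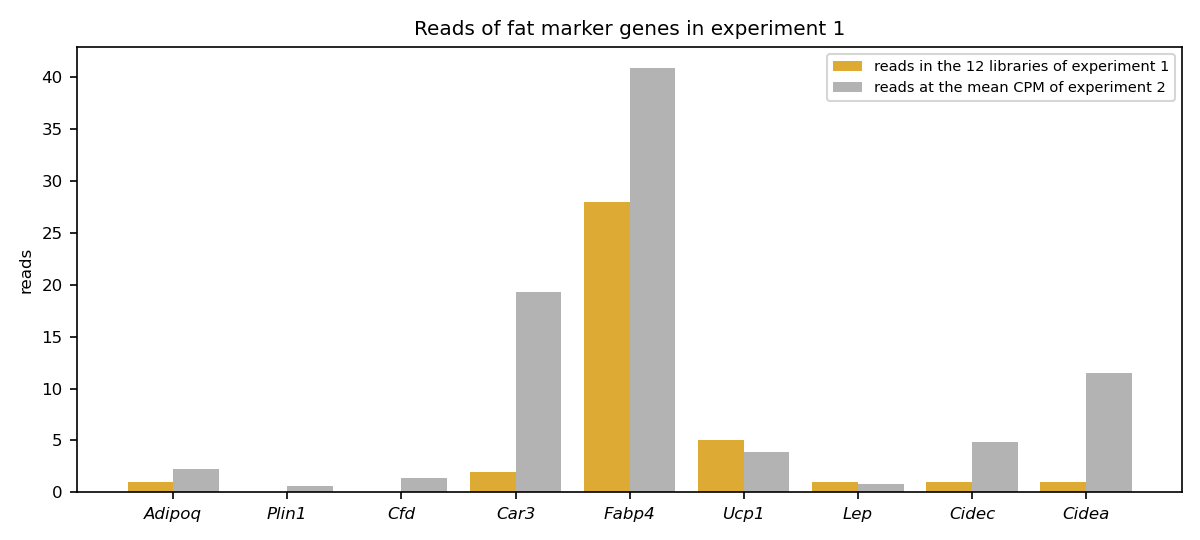
Reads of each fat marker summed over the 12 libraries of experiment 1 (yellow) beside the reads that the same libraries would hold at the mean CPM of experiment 2 (grey). Fabp4 gives 28 of the 39 reads, and Car3 and Cidea fall farthest below the grey bars in proportion among markers with more than 10 such reads.

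The reads are hamster reads placed on mouse transcripts, which bears on several markers. Fabp4 was counted on a pair of transcripts with 513 and 315 reads in experiment 2. Plin1 had identical counts on its 3 transcripts, and Cfd had 20 reads on each of 2 transcripts and 6 on another, of which 5 were in PRL replicate 6. Cidec had 57.0 to 58 reads on each of 3 transcripts. Counts summed over transcripts would therefore hold the same reads more than once. Fabp4, Car3 and the uncoupling proteins have close relatives in the genome, and how reads were shared among relatives is not stated.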

How the data were processed

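Kidney RNA of 24 hamsters was sequenced by nanopore as barcoded cDNA. The study's methods name a direct cDNA kit, and the sample labels describe a PCR-cDNA one. Guppy was used by the authors for basecalling and demultiplexing, Porechop for adapter removal, Filtlong for selecting long reads, and Minimap2 for alignment to mouse. They deposited estimated counts per mouse RefSeq transcript, 36662 transcripts in experiment 1 and 71590 in experiment 2, not scaled to library size. The submitters' processing notes name minimap2 and Salmon without a role. The program used to share reads among transcripts was not given in the sources used here.

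Each gene was taken as its transcript with the highest total, and counts were rounded to whole numbers. CPM is a count scaled to a library total of 1000000. Genes with a read in at least 4 (experiment 1) or 6 (experiment 2) of 12 libraries were tested with edgeR 4.0.16 (TMM scaling, quasi-likelihood test, R 4.3.3), 1 model per experiment, with Benjamini-Hochberg adjustment over all genes and a threshold of 0.05. SE is the log2 fold change divided by the root of F. DESeq2 1.42.0 and other alternatives are given in the closing section, and the fits were tested on simulated data. Replicate numbers did not pair the samples. Poisson intervals are exact at 95%, with 3 reads as the upper limit of a count of 0.

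Groups came from the labels. The 10 markers and the lists (other adipocyte genes, lipid droplet, fatty acid, brown fat, stroma, adrenal, muscle, blood, liver, lymphoid and myeloid, kidney) were chosen with earlier results of these data known. Genes named besides the markers are the 12 most alike to their summed level, list genes with a call, up to 4 list genes with most reads, and genes said in the text to be picked after their values were seen; list genes with an unadjusted p below 0.05 are such a choice. P-values weigh a difference between groups against the spread between the samples within groups.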

Additional observations from a re-analysis of the deposited data

Results flagged for a closer look

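Of 51 groups of 4 or 6 libraries examined, 14 held a library whose gap to the next value was large for the range of its group by Dixon's criterion. Chance gives about 1 in 20 groups, and the criterion assumes continuous values, so a lone read among zeros always meets it. In experiment 1 these were Adipoq and Lep in LP replicate 2 (56.1 CPM, 1 read each), Ucp1 in SP12wk replicate 2 (255 CPM, 4 reads), Cidec and Cidea in SP12wk replicate 4 (28.3 CPM, 1 read each) and Ucp1 in SP28wk replicate 1 (39.5 CPM, 1 read), each against 0 in the other 3 libraries of the group.

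In experiment 2, PRL replicate 5 stood apart in 4 markers, with Car3 at 213 CPM, Ucp1 at 63.2 CPM, Cidec at 57.5 CPM and Adipoq at 28.7 CPM. It was the shallowest library of experiment 2, with 174053 reads, and rested on 37, 11, 10 and 5 reads for these genes. Cfd in PRL replicate 6 was at 22.7 CPM from 8 reads. In SAL, Adipoq in replicate 5 was at 21.4 CPM against 4.57 CPM at most elsewhere, Plin1 in replicate 5 at 6.12 CPM from 2 reads, and Mb in replicate 6 at 38.4 CPM from 12 reads.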

How the results depend on the processing

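In PRL against SAL, where 0 genes were called, 1 was called with counts summed over transcripts, 92 with no filter on low counts, 40 without SAL replicates 5 and 6 and 50 without SAL replicates 1 to 4. Leaving out each library in turn gave 0 to 44, the highest without PRL replicate 4, with 27 without SAL replicate 6, 26 without PRL replicate 3 and 1 without SAL replicate 5. The number of markers called was 0 in 20 of 21 alternatives and 2, Fabp4 and Car3, without SAL replicates 5 and 6. Without SAL replicates 5 and 6 the log2 fold changes were 2.85 (Adipoq), 1.94 (Car3), 1.51 (Fabp4), 4.63 (Cox8b), 1.37 (Sncg) and 1.60 (Gsn). Without SAL replicates 1 to 4 they turned to -0.87 (Adipoq), -0.34 (Car3), -0.49 (Fabp4), -0.35 (Cox8b), -0.14 (Sncg) and -0.41 (Gsn). The summed level then differed by -18.5 CPM. These subsets were chosen after seeing the data and by the marker level itself, which fixes the direction of the shift, so their calls are no test of PRL. Lep ran from -0.78 to 0.011 over the 6 libraries whose removal left it testable, the highest without PRL replicate 2. The cause of these changes was not tested.

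With the replicate number as a block, 94 genes were called in PRL against SAL, 0 of them markers, among them Cox8b, Thrsp and Mb at 1.99, 1.24 and 2.70. Same-numbered libraries deviated from their group means with correlations from -0.147 to 0.202, and 1 of 6 correlated best with its own number, so the numbers do not pair the samples. The block gave 0 calls in SP12wk against LP.

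In SP12wk against LP, the 1 call was 0 in all 7 alternatives of processing, and 0 to 8 when a library was left out. In SP28wk against SP12wk, 7 calls became 0 with summed transcripts, 2 with DESeq2, 2 with the stricter filter, and 2 to 8 with a library left out. In SP28wk against LP, 11 calls became 0, 3, 5 and 8 to 54 in the same order, with 54 without LP replicate 4 and 23 without SP28wk replicate 1. Fabp4 kept its direction in all 3 comparisons and was never called there.

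The summed level differed by 80.5 to 174 CPM with a library left out. The mean r of the markers was 0.290 to 0.486 with a library left out and 0.252 without the highest and lowest library. Markers with fewer than 30 reads in experiment 2 (Adipoq, Cfd, Plin1 and Lep) and all but Fabp4 in experiment 1 are limited by depth.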

Other observations

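Among the 7203 genes with at least 30 reads, 11 had an r below -0.8 with the summed marker level. Paqr9 had the lowest r, at -0.919 over 12 libraries with 132 reads, followed by Wasl at -0.867 and Erlec1 at -0.843. They were picked by this ranking after the values were seen, and r is a description.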
